A study of Mus musculus with 14 samples.

Results

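The 10 genes described here are switched on by NF-κB or by JAK-STAT signalling, and the products of several of them hold those pathways back. They were measured in whole kidneys of female mice. They are Nfkbia, Tnfaip3 and Tnip3, Nfkbiz, Bcl3 and Relb, Socs1 and Socs3, and Ch25h and Bcl2a1d. These 10 of the 56980 genes in the deposited tables were chosen from a list of symbols that was written with earlier measurements of the same libraries in view, and no record says which comparison picked them. The levels, fold changes and p-values below are therefore a description of these genes and not independent support for any pattern among them. All 10 passed the filter on low counts, which 22339 genes passed.

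Bulk RNA sequencing was done on 14 left kidneys, each from a different female CD-1 mouse at 18 weeks of age. Per the paper, mice were injected with cationic ferritin for imaging shortly before the kidneys were taken. They were then sedated with tribromoethanol and perfused, and the left kidney was clamped off before the fixative. The part of these steps in the levels was not tested. CD-1 is an outbred stock, and the labels give the mice as wild type. Term non-diabetic (T-ND, n = 4) and term diabetic (T-D, n = 4) mice were born naturally and stayed with their own mothers. Preterm non-diabetic (PT-ND, n = 3) and preterm diabetic (PT-D, n = 3) mice were delivered by Caesarean section a day before term and raised by foster mothers that received acepromazine. Preterm birth therefore stands for the early delivery, the surgery and the fostering together, which cannot be told apart here. T-D and PT-D mice were made hyperglycaemic in early adulthood with streptozotocin (STZ), a toxin of insulin-producing β-cells. Some PT-D mice of the study, and no T-D mice, needed a repeated course of STZ, and the labels do not tell which of the sequenced mice these were.

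NF-κB is a family of paired transcription factors that waits in the cytoplasm, bound to IκB proteins, until cytokines such as TNF or IL-1 or microbial products trigger the destruction of IκB. Freed NF-κB switches on inflammatory genes and, along with them, genes for its own inhibitors. Cytokines that act through JAK kinases and STAT factors induce SOCS proteins, which in turn block the receptors and kinases. In the kidney both pathways operate in tubule cells, in endothelium and in resident and infiltrating leukocytes. A whole-kidney library mixes all of these, so that fewer cells of a type and less RNA per cell cannot be told apart.

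The libraries held 16697246 to 28673176 counts on genes (median 18765582), and the 10 genes had between 8 (Tnip3) and 4935 (Nfkbia) reads in a library. All 11 kidney markers, among them transporters of the proximal tubule and podocyte genes, were detected in every library. T-ND replicate 3 stood apart from the other T-ND libraries, with the highest T-ND value of 8 of the 10 genes and 2.90 times the mean of the other 3 for Relb. The comparisons with T-ND are therefore also given without it. The names of 5 libraries carry a suffix (replicate 1 of PT-D and of T-D, replicate 2 of PT-ND, and T-ND replicates 1 and 2), whose meaning the sources used here do not give.

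Mean levels were lower in T-ND than in T-D and in PT-ND for all 10 genes. In PT-D, Socs1, Tnip3, Ch25h and Bcl2a1d were near or under the T-ND level, Socs3, Tnfaip3 and Nfkbia lay between T-ND and the other groups, and Nfkbiz, Bcl3 and Relb were near the level of T-D and PT-ND. A gene was counted as differentially expressed (DEG) at an adjusted p under 0.05 and a log2 fold change beyond ±1 in edgeR's quasi-likelihood test, adjusted over all genes tested. The largest number of DEGs among the 10 came from the interaction, which set the effect of STZ in preterm kidneys against that in term kidneys. Here 7 of the 10 genes were DEGs, all with a lower effect of STZ in preterm kidneys, where 4.45% of all genes tested were DEGs and 2.46% in that direction. The median difference of the 10 was −2.13 on the log2 scale, and that of all genes 0.07.

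**Figure D1:**
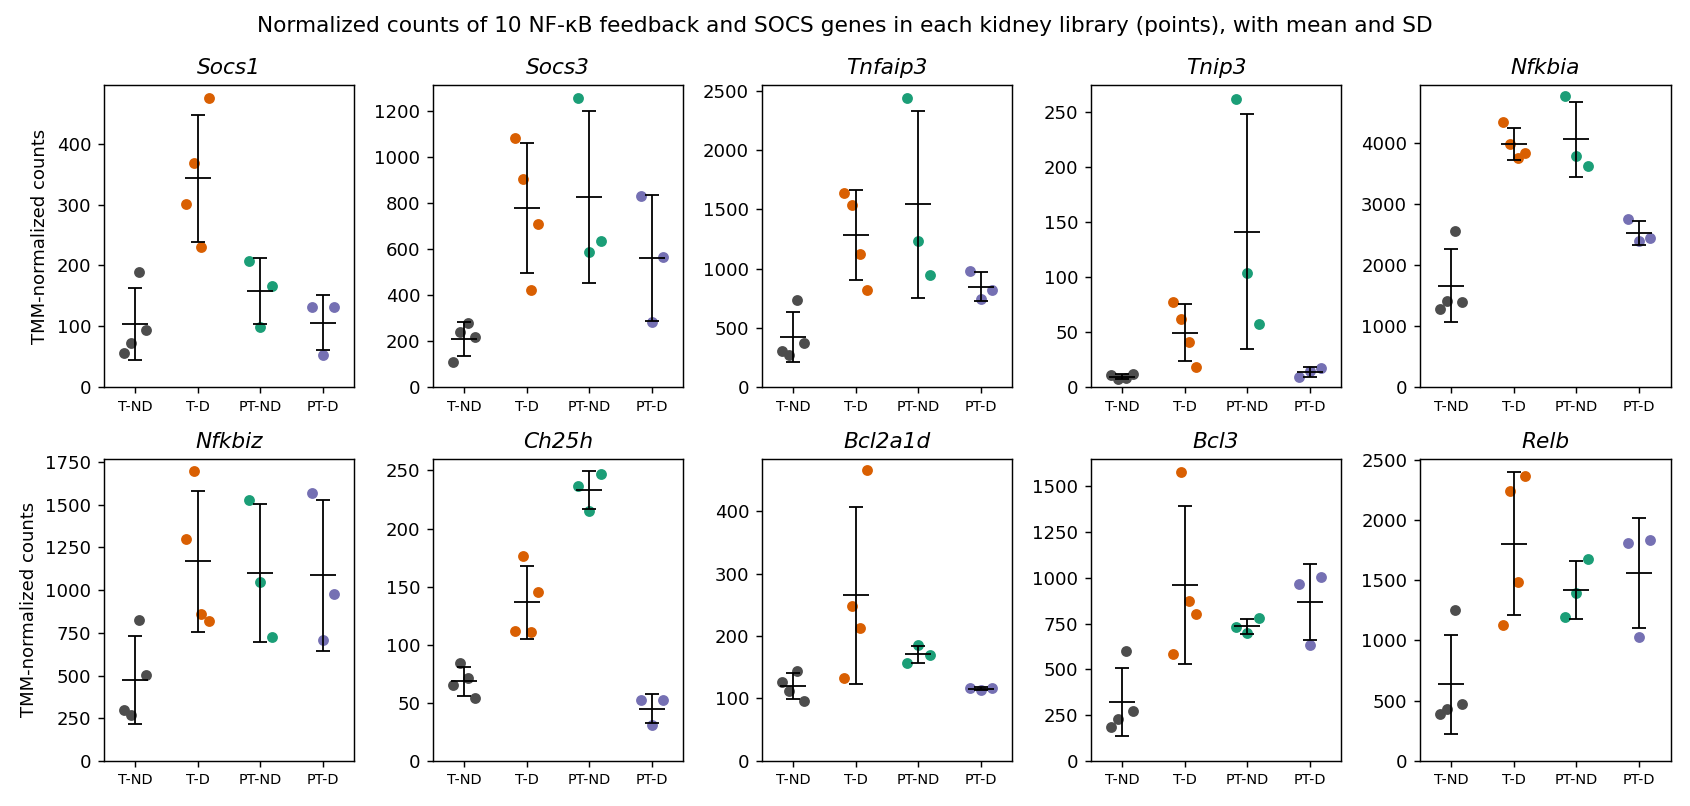
TMM-normalized counts (y axis, linear, from 0) of each of the 10 genes in every library (points) of the 4 groups (x axis), with the mean and SD of the group as bars. In these unstranded counts the Ch25h points of the 4 groups do not overlap, from 30.8 to 52.0 in PT-D up to 214.9 to 246.9 in PT-ND, whereas the Nfkbiz points of all groups overlap.

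In term kidneys, STZ went with higher values of all 10 genes, but none passed the threshold (edgeR adjusted p from 0.0692 to 0.236). The log2 fold changes of T-D against T-ND ran from 0.97 (Ch25h) to 2.35 (Tnip3), with a median of 1.52 against −0.02 over all genes. Of all genes 0.0673% were DEGs in this comparison, 11.8% had an unadjusted p under 0.05, as all 10 did, and 1.76% were DEGs in DESeq2, as 9 of the 10 were. For 6 of the 10 genes every T-D library lay above every T-ND library, which held for 2.9% of all genes. Without T-ND replicate 3, 7 of the 10 were DEGs (Socs1, Socs3, Tnfaip3, Nfkbia, Nfkbiz, Bcl3 and Relb), as were 1.3% of all genes.

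Preterm birth without STZ also went with higher values of all 10 genes. In PT-ND against T-ND, Tnip3 and Ch25h were DEGs and rose, where 0.0809% of all genes were DEGs and 0.0719% rose. The median log2 fold change of the 10 genes was 1.26, against −0.00053 over all genes, and DESeq2 counted 6 of the 10 (1.1% of all genes). In 7 of the 10 every PT-ND library exceeded every T-ND library (5.48% of all genes). Without T-ND replicate 3 there were 8 DEGs among the 10, all but Socs1 and Bcl2a1d, and 0.432% among all genes. Without either T-ND replicate 1 or 4, or without PT-ND replicate 1 or 2, there were 0, so that the calls of Tnip3 and Ch25h rest on all of these libraries together.

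In preterm kidneys 8 of the 10 genes had negative log2 fold changes under STZ and 2 had positive ones. Of the negative ones Nfkbiz was near 0 (−0.02 ± 0.31), and Socs1 and Socs3 were far from the threshold (edgeR adjusted p = 0.348 for both). PT-D against PT-ND had 2 DEGs among the 10, Tnip3 and Ch25h, and both fell, where 4.95% of all genes were DEGs and 1.99% fell. DESeq2 counted Tnip3 and Ch25h too (8.61% of all genes). The log2 fold changes of the 10 ran from −3.35 to 0.24 with a median of −0.57, against 0.05 over all genes. For 4 of the 10 (Tnip3, Nfkbia, Ch25h and Bcl2a1d) every PT-D library lay under every PT-ND library, which was so for 15.8% of all genes. Both calls held with each of the 6 libraries left out in turn and in all 10 other settings.

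Among diabetic mice, all 10 genes had lower mean values in PT-D than in T-D, with log2 fold changes from −1.85 (Tnip3) to −0.11 (Nfkbiz). None was a DEG in edgeR (adjusted p from 0.0664 to 0.879), where 0.193% of all genes were. An unadjusted p under 0.05 was found for 6 of the 10 and for 22.3% of all genes, and DESeq2 counted 4 of the 10 (Socs1, Tnip3, Ch25h and Bcl2a1d) and 4.52% of all genes. In 5 of the 10 all PT-D libraries were under all T-D libraries (10.6% of all genes). Nfkbia was among these 5, with an edgeR log2 fold change of −0.66.

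Set against untreated term mice, the 10 genes did not share a direction in PT-D. Log2 fold changes in PT-D against T-ND ran from −0.62 (Ch25h) to 1.43 (Bcl3), with 8 positive and 2 negative and a median of 0.80. None of the 10 was a DEG in edgeR, against 1.45% of all genes, while 6 of the 10 and 24.3% of all genes had an unadjusted p under 0.05 and 4 of the 10 and 6% of all genes were DEGs in DESeq2. Socs3, Tnfaip3 and Bcl3 were separated upward (12% of all genes) and Ch25h downward (11.2% of all genes). Without T-ND replicate 3, Socs3, Tnfaip3, Nfkbiz, Bcl3 and Relb were DEGs, with 4.8% of all genes. All comparisons with T-ND share those 4 libraries, and the comparisons of a group with its neighbours share theirs, so that these counts are not independent of each other.

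**Figure D2:**
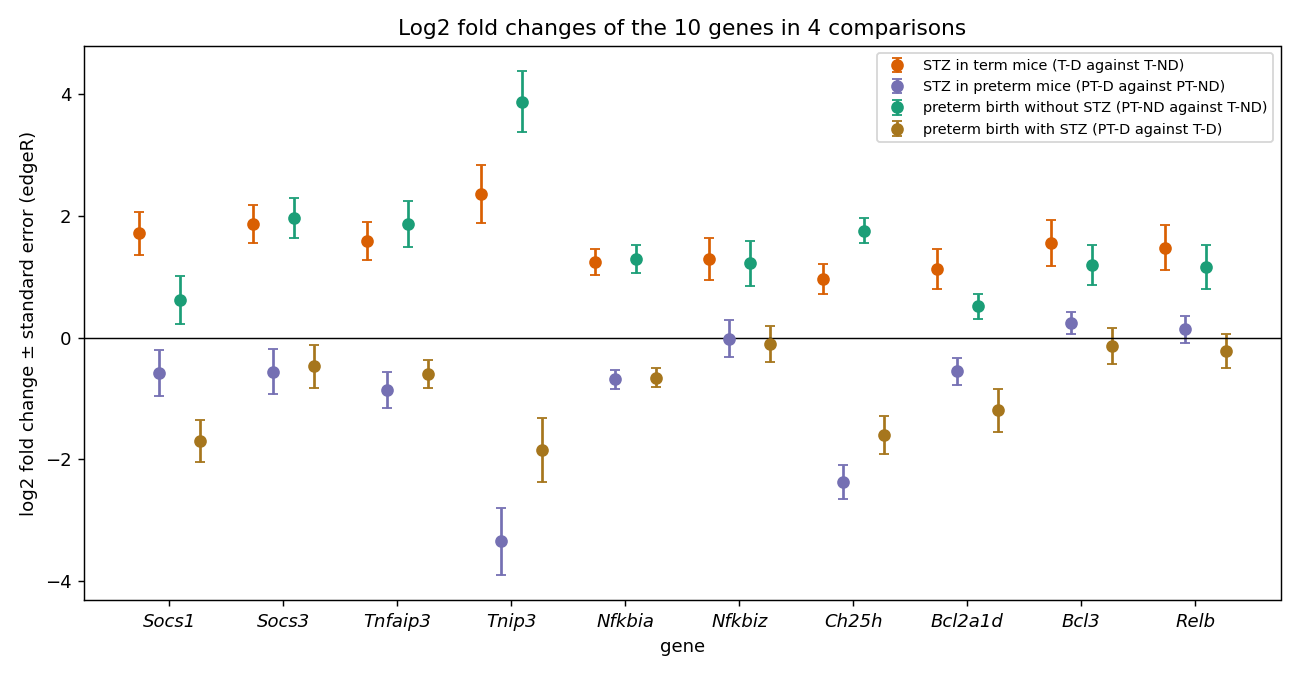
Log2 fold change with its standard error in edgeR (y axis) of each of the 10 genes (x axis) in 4 comparisons, drawn in 4 colours. Both comparisons with T-ND lie above 0 for all 10 genes, the effect of STZ in preterm mice lies at or under 0 for all but Bcl3 and Relb, and Tnip3 spans the widest range, from −3.35 to 3.88.

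A group of 3 genes encodes inhibitors that act in the cytoplasm. Nfkbia (ENSMUSG00000021025.9, chr12:55535332-55539432, minus strand) encodes IκBα, which binds NF-κB dimers and keeps them out of the nucleus. Tnfaip3 (ENSMUSG00000019850.12, chr10:18874201-18891405, minus strand) encodes A20, a ubiquitin-editing enzyme that shuts off signalling from the TNF receptor and Toll-like receptors. Tnip3 (ENSMUSG00000044162.13, chr6:65502295-65611024, plus strand) encodes ABIN-3, an A20-binding protein. Positions are those of GRCm39, and all 10 genes are protein-coding.

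For all 10 genes, the 250 bases before the RefSeq start sites in a promoter table were searched on both strands. The motifs were the κB consensus, of 10 letters, and the STAT motif TTCNNNGAA. No window held both motifs. The promoter table is that of RefSeq on GRCm38.p6, and the windows were placed on GRCm39 by exact match. Of the 10 genes 8 had an entry, and those of Nfkbia, Tnfaip3 and Tnip3 held the κB consensus, which 7.25% of the 32851 promoters in the table held. The windows of Nfkbia (chr12:55539433-55539682, minus strand) and of Tnip3 (chr6:65567132-65567381, plus strand, inside the longer GENCODE gene) are shown 5′ to 3′, with the κB match in capitals.
Nfkbia: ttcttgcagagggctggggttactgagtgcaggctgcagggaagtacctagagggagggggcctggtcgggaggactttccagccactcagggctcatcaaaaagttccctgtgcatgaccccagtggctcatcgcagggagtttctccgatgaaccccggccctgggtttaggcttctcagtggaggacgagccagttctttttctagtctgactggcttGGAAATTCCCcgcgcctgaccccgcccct
Tnip3: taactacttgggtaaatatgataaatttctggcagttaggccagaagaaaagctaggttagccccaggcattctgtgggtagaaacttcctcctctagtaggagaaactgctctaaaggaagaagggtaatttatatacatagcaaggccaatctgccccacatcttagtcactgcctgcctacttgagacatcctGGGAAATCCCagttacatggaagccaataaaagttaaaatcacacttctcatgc
The match lay 29 to 20 bases before the start in Nfkbia and 54 to 45 bases before it in Tnip3. Tnfaip3 has 2 windows, and the upstream window held 2 matches, at 125 to 116 and at 12 to 3 bases before the start, shown as stretches of 30 bases (chr10:18891264-18891293 and chr10:18891159-18891188, minus strand) because part of its window is transcribed in a longer GENCODE transcript.
Tnfaip3, distal match: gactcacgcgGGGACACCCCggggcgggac
Tnfaip3, proximal match: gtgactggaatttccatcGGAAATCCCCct
A match is a description of the letters and does not show that a factor was bound.

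Nfkbia was the gene with the least spread among T-D libraries, with a coefficient of variation of 6.48%. The T-ND libraries had 1276, 1415, 2555 and 1402 normalized counts, and the T-D libraries 4344, 3989, 3761 and 3841. The PT-ND libraries had 4766, 3788 and 3626, and the PT-D libraries 2747, 2386 and 2450. T-D and PT-ND thus overlapped with each other and lay above every other library, and only T-ND replicate 3 reached into the range of PT-D. The group means were 1662 ± 599 (SD) in T-ND, 3984 ± 258 in T-D, 4060 ± 616 in PT-ND and 2528 ± 192 in PT-D. The log2 fold change under STZ was 1.24 ± 0.21 (SE) in term kidneys (adjusted p = 0.0692) and −0.68 ± 0.16 in preterm kidneys (adjusted p = 0.0196, short of the fold threshold). The difference between these effects was −1.94 ± 0.29 (adjusted p = 0.00722) and held with each of the 14 libraries left out.

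Tnfaip3 had 307, 270, 736 and 376 normalized counts in the T-ND libraries and 1638, 1542, 1127 and 820 in the T-D libraries. The PT-ND libraries had 2440, 1237 and 950, and the PT-D libraries 982, 747 and 816. All T-ND libraries were the lowest, T-ND replicate 3 just under the lowest PT-D library, while the PT-ND libraries were widely spread. The interaction, preterm minus term, was −2.46 ± 0.50 on the log2 scale (adjusted p = 0.0219). That call was lost without PT-D replicate 3 (adjusted p = 0.0717) and held in the other 13 leave-outs.

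Tnip3 was the gene with the widest range between groups. It had 10.7, 7.31, 8.38 and 11.8 normalized counts in the T-ND libraries and 77.0, 62.1, 41.2 and 18.0 in the T-D libraries. PT-ND had the highest values, at 261.8, 104.1 and 57.7, and PT-D had 9.12, 14.3 and 17.6. PT-D thus overlapped with T-ND, and T-ND replicate 3 was not high for this gene. Tnip3 rose in PT-ND against T-ND (log2 fold change 3.88 ± 0.50, adjusted p = 0.0281) and fell in PT-D against PT-ND (log2 fold change −3.35 ± 0.56, adjusted p = 0.00673). The interaction of −5.72 ± 0.77 (adjusted p = 0.00474) was the widest among the 10 and held in all 14 leave-outs.

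The next group acts in the nucleus. Nfkbiz (ENSMUSG00000035356.18, chr16:55631738-55659262, minus strand) encodes IκBζ and Bcl3 (ENSMUSG00000053175.18, chr7:19541553-19557570, minus strand) encodes BCL-3, atypical IκB proteins that bind NF-κB on DNA and can activate or repress its targets. Relb (ENSMUSG00000002983.18, chr7:19339017-19363425, minus strand) encodes RelB, the subunit of the non-canonical branch of the pathway. These were the 3 genes that did not pass the threshold in the interaction, with adjusted p = 0.145 for Nfkbiz, 0.115 for Bcl3 and 0.115 for Relb. Their interaction values of −1.33 ± 0.54, −1.34 ± 0.51 and −1.37 ± 0.52 had the same sign as those of the other 7.

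Nfkbiz ranged from 268 to 823 normalized counts in T-ND, from 821 to 1696 in T-D, from 725 to 1531 in PT-ND and from 707 to 1571 in PT-D. Bcl3 ranged from 185 to 598 in T-ND, from 582 to 1578 in T-D, from 698 to 779 in PT-ND and from 632 to 1007 in PT-D. Relb ranged from 391 to 1252 in T-ND, from 1128 to 2366 in T-D, from 1193 to 1674 in PT-ND and from 1028 to 1831 in PT-D. PT-D and PT-ND overlapped for all 3, as they did for Tnfaip3, whereas every PT-D library lay under every PT-ND library for Nfkbia and Tnip3. A difference between the nuclear and the cytoplasmic genes was not tested. The log2 fold change of PT-D against PT-ND was −0.02 ± 0.31 for Nfkbiz, 0.24 ± 0.18 for Bcl3 and 0.13 ± 0.22 for Relb (adjusted p from 0.434 to 0.973). T-ND replicate 3 was the highest T-ND library for each, and without it Bcl3 and Relb passed the threshold in the interaction (adjusted p = 0.0334 and 0.0220), for 9 DEGs of 10 where 2.48% of all genes were DEGs. An antisense gene (Gm16175) overlaps Bcl3, and the unstranded count kept 75.4% to 83.7% of the Bcl3 reads that the strand columns hold.

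SOCS1 and SOCS3 bind JAK kinases and cytokine receptors and stop their signal, SOCS1 mainly after interferons and SOCS3 mainly after IL-6 and its relatives. Socs1 (ENSMUSG00000038037.6, chr16:10600104-10603875, minus strand) had 55.8, 73.1, 188.6 and 94.6 normalized counts in the T-ND libraries and 300.1, 368.0, 230.1 and 474.9 in the T-D libraries. It had 207.6, 99.5 and 166.1 in PT-ND and 132.2, 53.4 and 132.0 in PT-D. Every T-D library lay above all 10 other libraries, while T-ND, PT-ND and PT-D overlapped. The log2 fold change of T-D against T-ND was 1.71 ± 0.36 (adjusted p = 0.116) and that of PT-D against T-D −1.70 ± 0.35 (adjusted p = 0.0664). The interaction was −2.31 ± 0.58 (adjusted p = 0.0351), and it lost the threshold in 8 of the 14 leave-outs (adjusted p up to 0.0894).

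Socs3 (ENSMUSG00000053113.4, chr11:117856905-117860898, minus strand) followed the cytoplasmic inhibitors more than it followed Socs1. It had 108.1, 237.5, 280.7 and 216.1 normalized counts in T-ND and 1082, 903, 424 and 708 in T-D. PT-ND had 1256, 586 and 633, and PT-D had 830, 284 and 567. All T-ND libraries lay under all others, though T-ND replicate 3 was close to PT-D replicate 2. The log2 fold change was 1.87 ± 0.32 in T-D against T-ND (adjusted p = 0.0692), 1.97 ± 0.33 in PT-ND against T-ND (adjusted p = 0.0731) and 1.40 ± 0.37 in PT-D against T-ND (adjusted p = 0.0671). The interaction of −2.44 ± 0.56 (adjusted p = 0.0282) lost the threshold without replicate 3 of PT-ND or replicate 2 or 3 of PT-D (adjusted p up to 0.0811).

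Of the 8 genes with a promoter entry, only Socs3, a textbook STAT3 target, held the STAT motif, which 7.02% of all promoters in the table held. The match lay 154 to 146 bases before the RefSeq start and is shown in capitals within 30 bases (chr11:117860327-117860356, minus strand).
Socs3: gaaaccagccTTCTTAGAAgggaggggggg
The window of Socs1 held neither motif, and Nfkbiz and Relb had no entry. All 250 bases of the Socs1 window and 225 of the Socs3 window lie in GENCODE exons of these genes. These windows are thus largely transcribed sequence, and the search did not cover the bases before the GENCODE starts.

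Ch25h and Bcl2a1d are targets of these pathways and not brakes on them in the strict sense. Ch25h (ENSMUSG00000050370.6, chr19:34451178-34452564, minus strand) encodes cholesterol 25-hydroxylase, which makes 25-hydroxycholesterol, an oxysterol with antiviral action that restrains cholesterol synthesis. It had 65.4, 84.0, 71.2 and 53.7 normalized counts in T-ND, 112.1, 176.7, 111.3 and 145.4 in T-D, 236.8, 214.9 and 246.9 in PT-ND, and 52.0, 30.8 and 52.0 in PT-D. In the unstranded count it was the only one of the 10 whose 4 groups did not overlap at all, in the order PT-D, T-ND, T-D and PT-ND. Ch25h rose in PT-ND against T-ND (log2 fold change 1.76 ± 0.21, adjusted p = 0.0200) and fell in PT-D against PT-ND (−2.37 ± 0.28, adjusted p = 0.00192). The interaction of −3.36 ± 0.36 had the smallest adjusted p of the 10 (0.000900) and held in all 14 leave-outs and all 9 other settings.

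The Ch25h count needs a caution of its own, since an antisense gene (Gm26902) overlaps it and the unstranded count kept only 48.2% to 72.5% of the reads in the strand columns. The protocol does not mark strand, so that reads of the pair cannot be told apart. With the sum of the strand columns, Ch25h was still a DEG in PT-ND against T-ND (log2 fold change 1.83, adjusted p = 0.0192). Before normalization, the strand columns held 100 Ch25h reads in PT-D replicate 3 and 69 in T-ND replicate 4. The separation of PT-D from T-ND is therefore one of the unstranded count only.

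Bcl2a1d (ENSMUSG00000099974.2, chr9:88605338-88613967, minus strand) encodes a copy of A1, a BCL-2 relative that protects leukocytes from apoptosis. It had 125.9, 112.3, 144.6 and 95.7 normalized counts in T-ND, 133.6, 248.6, 213.4 and 465.9 in T-D, 157.5, 185.5 and 169.6 in PT-ND, and 116.7, 113.6 and 117.6 in PT-D. The PT-D libraries lay within the T-ND range and were almost equal, while T-D was widely spread. The interaction was −1.70 ± 0.44 (adjusted p = 0.0370), and it lost the threshold in 9 of the 14 leave-outs. It was highest in T-D replicate 4, which was also the library with the highest summed level of the 8 macrophage markers (189.9 CPM), and their part in the result was not tested. Of the stretches of 150 bases in its transcript, 19.9% also occur in the paralogs Bcl2a1a, Bcl2a1b or Bcl2a1c, so that some of its reads were not counted or cannot be assigned with certainty. Bcl2a1a had a mean of 51.8 in T-ND, 134.8 in T-D, 84.2 in PT-ND and 60.3 in PT-D, whereas Bcl2a1b stayed under 6 and Bcl2a1c had no count.

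Levels can be compared between genes only per length, for which CPM per kilobase of exon were used. In T-ND, Nfkbia was at 42.4 ± 15.3 CPM per kilobase, followed by Bcl2a1d at 6.85 ± 1.19 and Relb at 6.19 ± 4.00, and Tnip3 was lowest at 0.043 ± 0.009. Nfkbia was also highest and Tnip3 lowest in T-D (101.7 and 0.22), PT-ND (103.6 and 0.63) and PT-D (64.5 and 0.061).

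Across the 14 libraries the closest pairs among the 10, by Pearson's r of log2 CPM, were Bcl3 and Relb (0.958) and Tnfaip3 and Nfkbia (0.947). Socs3 was most like Tnfaip3 (0.889), and so were Nfkbiz (0.920) and Tnip3 (0.821). Socs1 was most like Nfkbia (0.753), Bcl2a1d most like Socs1 (0.743) and Ch25h most like Tnip3 (0.789). Ch25h and Bcl3 had only 0.329 and Bcl2a1d and Nfkbiz 0.310. The points of these correlations are the same 14 libraries in 4 groups, so that they largely repeat the group differences.

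Outside the 10 genes, the protein-coding genes whose log2 CPM over the 14 libraries was most like the mean standardized level of the 10 were, of 11626 candidates, Marcksl1 (r = 0.956), Ripk2 (0.950), Gadd45b (0.950), Elf3 (0.945), Stx11 (0.945), Samsn1 (0.944), Cebpd (0.934) and Maff (0.934). Gadd45b had 244 ± 66.2 normalized counts in T-ND, 774 ± 146 in T-D, 688 ± 295 in PT-ND and 436 ± 196 in PT-D. Cebpd had 892 ± 380, 2498 ± 566, 2407 ± 615 and 1087 ± 35.1 in the same order.

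The wider NF-κB pathway was described with lists of its other genes. The 7 other NF-κB subunits and IκB proteins all had positive log2 fold changes in T-D against T-ND (median 0.83) and in PT-ND against T-ND (median 0.68), with no DEG in either. In the interaction all 7 were negative (median −1.15), and Nfkbib, which encodes IκBβ, and Nfkbid, which encodes the nuclear protein IκBNS, were DEGs (log2 −1.25 ± 0.33, adjusted p = 0.0410, and −1.75 ± 0.45, adjusted p = 0.0377). The share of all genes that were DEGs in that direction was 2.46%. Rel, the c-Rel subunit, had 92.1 ± 30.1 normalized counts in T-ND, 152.7 ± 68.2 in T-D, 246.4 ± 125.3 in PT-ND and 150.1 ± 27.6 in PT-D, with an interaction of −1.45 ± 0.55 (adjusted p = 0.115).

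The 32 inflammatory targets of NF-κB had the same tendency but split in PT-D. In the interaction 8 of the 32 were lower and 1 was higher, where 2.46% of all genes tested were lower and 1.98% higher. The 4 with the smallest adjusted p were the chemokine gene Ccl2 (−2.95 ± 0.46, adjusted p = 0.00792), the dendritic cell marker Cd83 (−2.72 ± 0.47, adjusted p = 0.0135), the cytokine gene Tnf (−2.84 ± 0.51, adjusted p = 0.0145) and the protease gene Mmp9, which was the 1 higher (3.70 ± 0.67, adjusted p = 0.0163). Tnf had 33.8 ± 11.7 normalized counts in T-ND, 65.1 ± 20.1 in T-D, 111.2 ± 25.8 in PT-ND and 29.7 ± 7.74 in PT-D, which is the order of Ch25h. In PT-D against PT-ND 5 of the 32 rose and 5 fell, as did 2.96% and 1.99% of all genes. The 4 leading ones were Lcn2, a tubular injury and neutrophil gene (log2 2.77 ± 0.31, adjusted p = 0.00170), complement C3 (2.95 ± 0.43, adjusted p = 0.00434), Cd83 (−1.98 ± 0.31, adjusted p = 0.00540) and Mmp9 (3.22 ± 0.50, adjusted p = 0.00547). In PT-ND against T-ND Ccl2 (1.41 ± 0.14, adjusted p = 0.00649), Cxcl2 (3.12 ± 0.36, adjusted p = 0.0184) and the endothelial adhesion gene Sele (2.73 ± 0.40, adjusted p = 0.0442) rose. Ccl20 and Mmp9 rose in PT-D against T-ND, Mmp9 rose in PT-D against T-D, and none of the 32 was a DEG in T-D against T-ND, where 20 had a positive change with an unadjusted p under 0.05, as 5.57% of all genes had.

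**Figure D3:**
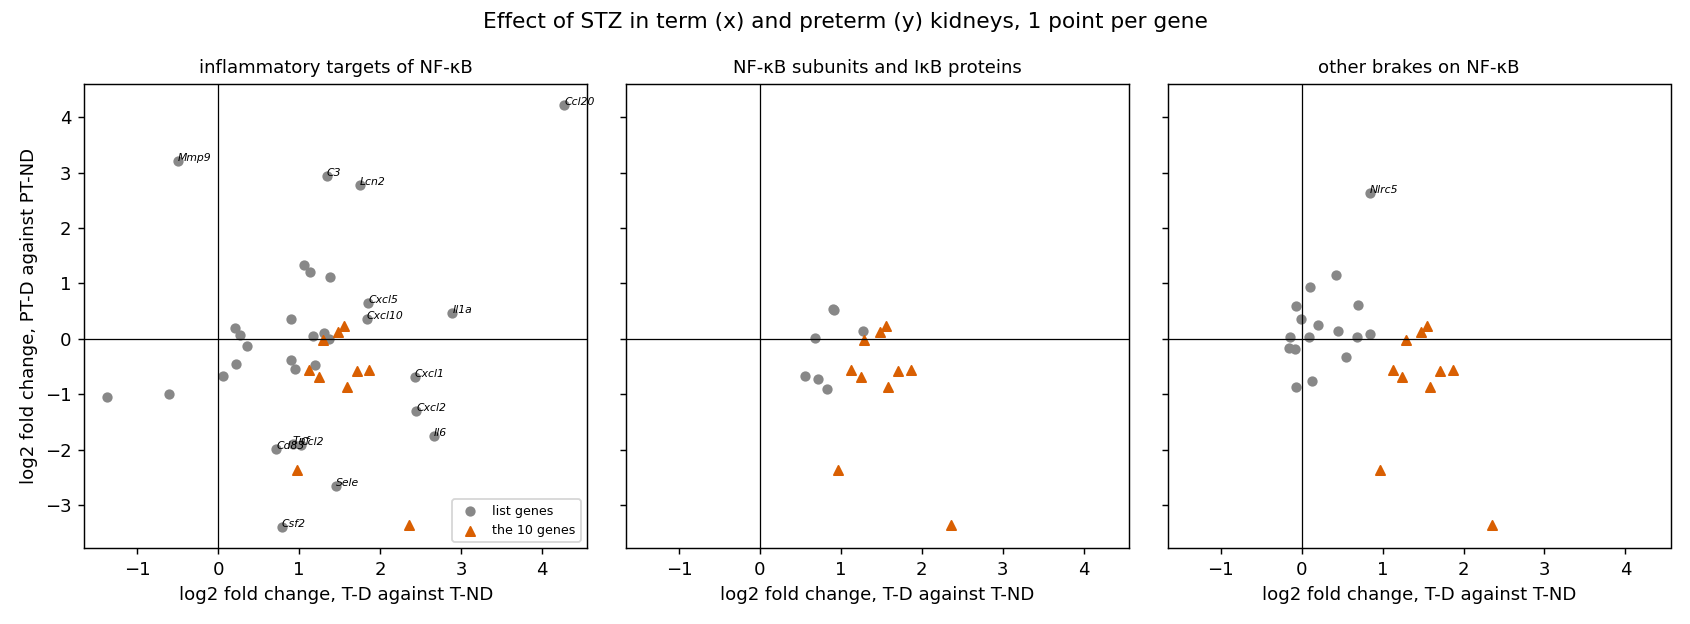
Log2 fold change under STZ in term kidneys (x axis, T-D against T-ND) and in preterm kidneys (y axis, PT-D against PT-ND), which share no library, for 3 lists of NF-κB genes (grey circles) and the 10 genes (orange triangles). Mmp9, C3, Lcn2 and Ccl20 lie above 2 on the y axis, while Sele, Ccl2, Tnf and Cd83 lie under −1 with Tnip3 and Ch25h.

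Other brakes on NF-κB (17 genes, deubiquitinases and adaptor inhibitors among them) had a median log2 fold change against T-ND of 0.13 in T-D, 0.04 in PT-ND and 0.33 in PT-D, and none was a DEG in the interaction. N4bp1 (1.16 ± 0.17, adjusted p = 0.00442) and Nlrc5 (2.64 ± 0.39, adjusted p = 0.00462) rose in PT-D against PT-ND, as did 2.96% of all genes. Nlrc5, the activator of MHC class I genes, had 336 ± 314 normalized counts in T-ND, 612 ± 268 in T-D, 198 ± 83.8 in PT-ND and 1232 ± 549 in PT-D. Of the 24 receptors, adaptors and kinases upstream of NF-κB, only Tlr2 was a DEG, higher in PT-D than in PT-ND (1.06 ± 0.30, adjusted p = 0.0419), and none was in the interaction.

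In the JAK-STAT pathway, the 6 other SOCS family genes did not follow Socs1 and Socs3. All 6 had negative log2 fold changes in T-D against T-ND (median −0.30) and in PT-ND against T-ND (median −0.36), with no DEG, and 5 of the 6 were positive in the interaction. Cish, a target of STAT5 that restrains cytokine receptors, fell in PT-D against T-ND (−1.87 ± 0.34, adjusted p = 0.0302) and in PT-D against PT-ND (−1.09 ± 0.21, adjusted p = 0.00995). Cish had 630 ± 281 normalized counts in T-ND, 274 ± 59.0 in T-D, 372 ± 53.4 in PT-ND and 174 ± 33.9 in PT-D. Of 30 receptors, kinases and STATs, 5 rose in PT-D against PT-ND, where 2.96% of all genes rose, among them Stat3 (1.32 ± 0.19, adjusted p = 0.00412), Stat2 (1.56 ± 0.23, adjusted p = 0.00475) and the IL-6 receptor gene Il6ra (1.43 ± 0.31, adjusted p = 0.0169). Il6ra was the only DEG of the 30 in the interaction (1.96 ± 0.51, adjusted p = 0.0377), opposite in sign to Socs3.

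Of the 15 STAT targets tested, 3 had a lower effect of STZ in preterm than in term kidneys, namely Cebpd (−2.63 ± 0.40, adjusted p = 0.00722), Pim3 (−1.49 ± 0.37, adjusted p = 0.0356) and Cebpb (−2.23 ± 0.57, adjusted p = 0.0362). The share of all genes called in that direction was 2.46%. In PT-D against PT-ND 3 of the STAT targets rose and 2 fell, as did 2.96% and 1.99% of all genes. The interferon-induced Gbp2 led upward (1.94 ± 0.30, adjusted p = 0.00518) and Pim3 downward (−1.24 ± 0.21, adjusted p = 0.00678). Around Ch25h, 17 oxysterol genes were tested. Cyp7b1, which degrades 25-hydroxycholesterol, rose in PT-D against PT-ND (2.00 ± 0.39, adjusted p = 0.0107). None of the 17 was a DEG in the interaction. The remaining lists held few DEGs. In PT-D against T-ND, where 1.45% of all genes were DEGs, the pro-apoptotic genes Pmaip1 (1.23 ± 0.19, adjusted p = 0.0227) and Bbc3 (1.67 ± 0.34, adjusted p = 0.0380) rose among 15 BCL-2 family genes. Of 14 immediate early genes Klf4 was a DEG in the interaction (1.54 ± 0.33, adjusted p = 0.0244), and of 10 glucocorticoid-responsive genes Zbtb16 rose in PT-D against PT-ND (1.43 ± 0.25, adjusted p = 0.00768).

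Markers of leukocytes and kidney cells also moved with the groups. The summed level of 3 pan-leukocyte markers was 16.9 to 27.3 CPM in T-ND. In T-D its median was 25.3 and its lowest value 24.4. It was 23.1 to 45.8 in the PT-ND libraries and 32.9 to 40.6 in the PT-D libraries. Ptprc (CD45) rose in PT-D against T-ND (log2 fold change 1.10 ± 0.23, adjusted p = 0.0401). The 6 neutrophil markers summed to 19.2 to 51.5 CPM in T-ND, 17.7 to 68.3 in T-D, 12.4 to 70.0 in PT-ND and 69.7 to 241.5 in PT-D, and all 6 had positive log2 fold changes in PT-D against each other group. Among them Csf3r and Cxcr2 rose in PT-D against PT-ND and Cxcr2 in PT-D against T-ND, and Csf3r was a DEG in the interaction (2.32 ± 0.65, adjusted p = 0.0472). The 8 macrophage markers summed to 93.4 to 142.2 in T-ND, 89.5 to 189.9 in T-D, 131.1 to 145.1 in PT-ND and 74.7 to 122.9 in PT-D. Single macrophage markers went the other way from this sum. Adgre1 (1.07 ± 0.25, adjusted p = 0.0224) and Cx3cr1 (1.97 ± 0.53, adjusted p = 0.0349) rose in PT-D against PT-ND, and Cx3cr1 was a DEG in the interaction (4.77 ± 0.94, adjusted p = 0.0199), opposite in sign to the 10 genes. In PT-D against T-D, 5 of the 8 macrophage markers had positive and 3 negative log2 fold changes, and none passed the threshold. The highest were Cx3cr1 (3.11 ± 0.57, adjusted p = 0.0580) and Itgam (1.57 ± 0.55, adjusted p = 0.133), and the negative ones were Csf1r (−0.48), C1qa (−0.39) and C1qb (−0.34). By median PT-D was highest in neutrophil markers (72.9 CPM). The 7 T and NK cell markers summed to 2.88 to 14.6, 3.81 to 19.1, 3.31 to 9.64 and 6.69 to 8.61 CPM in the same order of groups. The 5 B and plasma cell markers summed to 2.69 to 71.3, 4.14 to 10.9, 12.9 to 58.5 and 9.15 to 17.7, and the 11 kidney markers to 9291 to 10279, 7017 to 9586, 9217 to 9964 and 8204 to 9213. Of the kidney markers, the podocyte gene Nphs1 rose in PT-D against PT-ND (1.03 ± 0.23, adjusted p = 0.0176) and against T-ND (1.41 ± 0.31, adjusted p = 0.0465). Umod, a gene of the thick ascending limb, fell in PT-D against T-ND (−1.39 ± 0.26, adjusted p = 0.0325). The endothelial gene Kdr rose in PT-D against PT-ND (1.15 ± 0.27, adjusted p = 0.0208) and was a DEG in the interaction (1.83 ± 0.47, adjusted p = 0.0375). The part of these cell types in the values of the 10 genes was not tested.

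**Figure D4:**
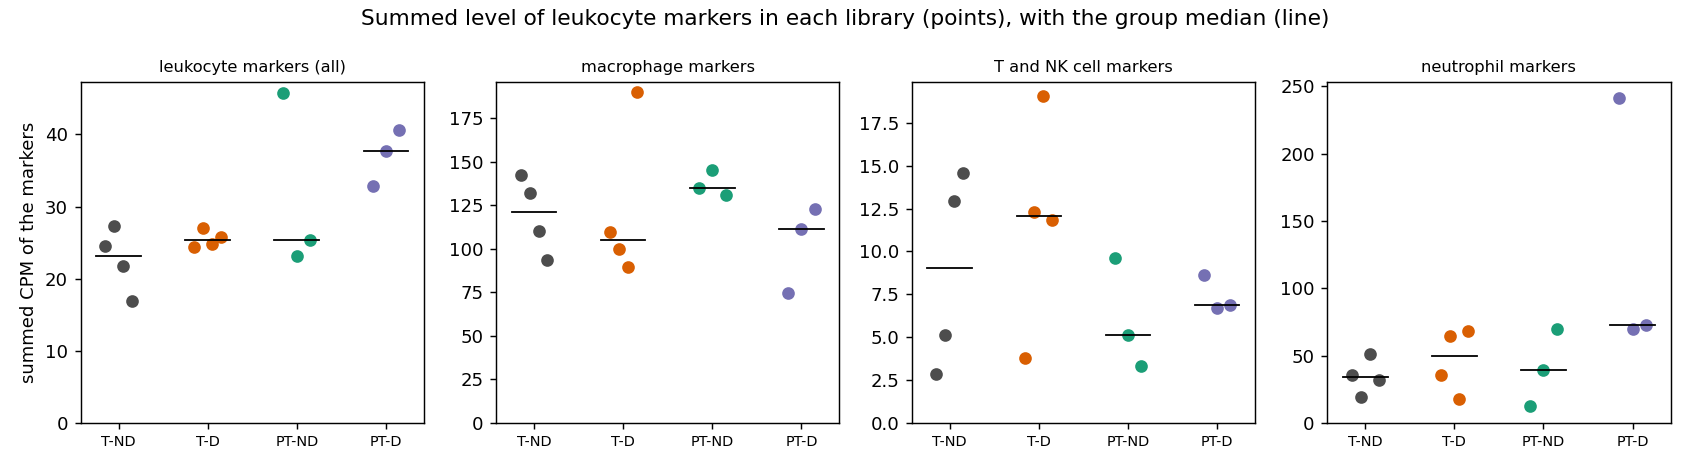
Summed CPM (y axis, linear, from 0) of the markers of all leukocytes, macrophages, T and NK cells and neutrophils in each library (points) by group (x axis), with the median of the group as a line. The neutrophil markers of PT-D reach 241.5 in a library, while the macrophage markers are highest in a T-D library at 189.9.

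The interaction was also examined within the library suffix. Among the 9 libraries without the suffix, only Ch25h passed (−3.75 ± 0.51, adjusted p = 0.0184), where 0.0537% of all genes did, while the median of the 10 genes was −2.02, close to the −2.13 over all libraries. With the suffix as a covariate 6 of the 10 and 3.49% of all genes passed, and Bcl2a1d did not (adjusted p = 0.0503). DESeq2 counted 9 of the 10 in the interaction, all but Nfkbiz, where it counted 11% of all genes.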

How the data were processed

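Kidney RNA of 14 female mice was sequenced in 4 groups, taken from the sample titles. The authors aligned reads with STAR to GRCm39 (per the labels) and deposited raw read counts for each gene, as an unstranded column and as a column for either strand. The unstranded column was analysed. They cover counting only, and reads shared by overlapping genes were not counted. Symbols, lengths and positions are those of GENCODE M39, in which 56236 of 56980 IDs were found without their version. The deposited tables hold no gene symbols.

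Genes with a total above 10 counts were tested in edgeR 4.0.16 (R 4.3.3) with TMM factors, glmQLFTest and Benjamini-Hochberg adjustment over all genes, two-sided. Each pair was fitted on its own libraries and the interaction on all 14. A standard error is the log2 fold change divided by the root of F. Normalized counts are given as mean ± SD. Separate mice are the replicates. The procedure was tested on simulated data with known changes.

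The 10 genes, the gene lists and the markers were chosen with earlier results of these data known. From each list, at most the 4 DEGs with the smallest adjusted p in a comparison are named, and values of other list genes (Rel, Bcl2a1a) are given as background, chosen after they were seen. The 8 genes most like the 10 were protein-coding, averaging at least 50 normalized counts, with a prior count of 2 for log2 CPM. Replicate numbers are those of the labels.

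The settings varied were DESeq2 1.42.0, upper quartile and RLE normalization, filterByExpr, no filter, all libraries jointly, the suffix as a covariate, libraries without it, a replicate block, the sum of the strand columns, the adjusted p alone and each library left out. No set test was run.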

Additional observations from a re-analysis of the deposited data

Results flagged for a closer look

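The gene values of T-ND and T-D, the groups of 4 libraries, were screened for a library far from the other 3, in 20 groups of values, of which chance flags about 1 in 20. T-ND replicate 3 was far above the others for Nfkbia (2555 normalized counts, others at most 1415) and for Relb (1252, others at most 474). The groups of 3 libraries were not screened.

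STZ had a different effect in preterm than in term kidneys for 7 of the 10 genes, by the interaction term in edgeR, where 4.45% of all genes passed and 2.46% in the same direction. Among the 9 libraries without the suffix 1 of the 7 passed (Ch25h), with 0.0537% of all genes. The difference, preterm minus term, on the log2 scale was −5.72 for Tnip3, −3.36 for Ch25h, −2.46 for Tnfaip3, −2.44 for Socs3, −2.31 for Socs1, −1.94 for Nfkbia and −1.70 for Bcl2a1d.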

How the results depend on the processing

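Counts of the 10 genes called and of the pathway list genes called moved more than the median fold changes. The share of all genes called in the same fit stands in parentheses. Of the 10 genes, T-D against T-ND gave 0 (0.0673%), but 9 in DESeq2 (1.76%), 7 without a filter (0.392%) and 2 with all 14 libraries in a joint fit (0.26%). PT-D against T-D gave 0 (0.193%), but 4 in DESeq2 (4.52%), 4 without a filter (2.31%), 3 in the joint fit (1.77%) and 1 with the strand columns summed (0.222%). PT-D against T-ND gave 0 (1.45%), but 4 in DESeq2 (6%), 5 without a filter (2.26%), 1 in the joint fit (1.54%) and 1 with the suffix as a covariate (1.87%). PT-ND against T-ND gave 2 (0.0809%), but 6 in DESeq2 (1.1%), 1 with filterByExpr (0.052%), 5 without a filter (0.304%), 5 with the suffix as a covariate (0.202%) and 0 in libraries without the suffix (0.0773%). The interaction gave 7 (4.45%), and 1 in libraries without the suffix (0.0537%). The median log2 fold change of PT-D against T-ND was 0.80, and 0.41 in libraries without the suffix. The cause of these shifts was not tested.

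Of the pathway list genes, T-D against T-ND gave 0, but 22 in DESeq2, 1 with RLE (0.0763%) or upper quartile normalization (0.0808%) or the suffix as a covariate (0.0898%), 13 without a filter and 5 in the joint fit. PT-D against T-D gave 2, but 9 in DESeq2, 0 with filterByExpr (0.14%) or without the suffix (0.0766%), 15 without a filter, 6 in the joint fit and 1 with the suffix as a covariate (0.103%). PT-D against T-ND gave 7, but 12 by adjusted p alone (2.76%), 27 in DESeq2, 14 with upper quartile normalization (1.74%), 25 without a filter, 15 in the joint fit, 13 with the suffix as a covariate and 1 without the suffix (0.316%). PT-D against PT-ND gave 28 (4.95%), and 50 by adjusted p alone (12.9%). PT-ND against T-ND gave 3, but 16 in DESeq2, 10 without a filter and 0 in the joint fit (0.0985%) or without the suffix. The interaction gave 16, but 26 in DESeq2 (11%) and 1 without the suffix.

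Libraries with the same replicate number were not more alike than others (median correlation of deviations −0.07 against 0.02). This showed no pairing by number but cannot exclude one among so few libraries. In the paper, litter mates of treated mice served as non-diabetic controls. The labels do not give the litters, so that it is unknown which of the sequenced mice shared one. With the number as a replicate block, in which replicate 4 drops out where a term group is compared with a preterm group, the 10 genes gave 0 calls in PT-ND against T-ND (0.027%), and the list genes gave 2 in T-D against T-ND (0.0853%), 4 in PT-D against T-D (0.372%), 4 in PT-D against T-ND (0.327%) and 1 in PT-ND against T-ND. The interaction kept 6 of the 10 genes under the block (2.52%).

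With 1 library left out in turn, the calls among the 10 genes ran from 0 to 7 in T-D against T-ND, 0 to 1 in PT-D against T-D, 0 to 5 in PT-D against T-ND, 2 to 3 in PT-D against PT-ND, 0 to 8 in PT-ND against T-ND and 3 to 9 in the interaction. Those of the list genes ran from 0 to 38, 1 to 3, 0 to 47, 22 to 36, 0 to 15 and 5 to 21 in the same order, and the share of all genes from 0.00899% to 1.3%, 0.117% to 0.471%, 0.126% to 4.8%, 2.67% to 6.37%, 0.0045% to 0.432% and 0.34% to 5.56%. The median fold changes ran from 1.31 to 2.03, −0.81 to −0.54, 0.68 to 1.14, −0.76 to −0.36, 1.12 to 1.69 and −2.42 to −1.88. The highest values in the comparisons with T-ND were those without T-ND replicate 3.

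Signs turned for genes that were near 0 and not DEGs. With 1 library left out, Nfkbiz ran from −0.49 to 0.13, Bcl3 from −0.32 to 0.20 and Relb from −0.39 to 0.0082 in PT-D against T-D, Socs1 from −0.17 to 0.49 and Bcl2a1d from −0.14 to 0.049 in PT-D against T-ND, and Nfkbiz from −0.39 to 0.28 and Relb from −0.0025 to 0.36 in PT-D against PT-ND. Socs1 in PT-D against T-ND was also negative with upper quartile normalization (−0.011) and in libraries without the suffix (−0.63), and Relb in PT-D against PT-ND in libraries without the suffix (−0.0038).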
